A study of Mus musculus with 14 samples.

Results

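The genes described here are the 10 members of the circadian clock circuit Arntl (also called Bmal1), Clock, Per1, Per2, Per3, Cry1, Cry2, Nr1d1, Nr1d2 and Dbp, picked by symbol from an expression table of 18781 mouse genes. All 10 had rows in the table, and all 10 were among the 12802 genes that passed a filter on low values and were tested. The libraries are RNA-seq of small intestinal organoids, crypt-derived epithelial cultures grown in Intesticult medium without further treatment, and the study asked how loss of autophagy and of ribonucleotide excision repair act together in the epithelium. Values are on a log2 scale, and their depth is unknown because the table holds no counts. The comparisons ask whether clock gene levels differed between the genotypes or between libraries of 1 genotype, as they would if cultures were harvested in different phases.

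The control organoids (WT, 4 libraries) carried ATG16L1flox/flox and RNaseH2Bflox/flox alleles and no Cre. Atg16l1ΔIEC organoids (4 libraries) were ATG16L1flox/flox with VillinCre+/-, and Rnaseh2bΔIEC organoids (2 libraries) were RNaseH2Bflox/flox with VillinCre+/-. The study's methods list 4 Rnaseh2bΔIEC samples, of which 2 were left out over the quality of their read counts. Atg16l1/Rnaseh2bΔIEC organoids (4 libraries) carried both floxed genes with VillinCre+/-. The Villin promoter drives Cre in intestinal epithelial cells, so Cre acts in the cells that make up the organoid, and no group carries Cre without a floxed gene. All WT libraries were sequenced on lane 1 and all libraries of both single knockouts on lane 2. Libraries 1 and 2 of Atg16l1/Rnaseh2bΔIEC ran on lane 2 and libraries 3 and 4 on lane 1, so the lane and a single knockout cannot be told apart against WT. The labels do not say whether libraries of 1 genotype came from separate cultures or animals, and p-values then measure only the spread between these libraries, which may be technical. Time of day at harvest was not given in the sources used here, and each library is 1 harvest, so a rhythm or its phase was not measured.

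The mammalian clock is a transcriptional feedback loop that runs in nearly every cell, intestinal epithelium and organoids included. ARNTL and CLOCK form a heterodimer that binds E-boxes and switches on the Period and Cryptochrome genes, whose proteins return to the nucleus and repress the heterodimer. The same heterodimer drives Nr1d1 and Nr1d2, which encode the REV-ERB repressors of Arntl, and Dbp, an output factor, so in a running clock Arntl messenger RNA peaks roughly opposite to that of Nr1d1 and Dbp. In a dish, cells of a culture can be set to a common phase by serum, glucocorticoid or cAMP signals, and a medium change can act as such a signal.

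The deleted genes were read first, as a check of the labels. Atg16l1 stood at 9.43, 9.54, 9.44 and 9.44 in the WT libraries, at 6.87, 7.35, 6.75 and 6.73 in Atg16l1ΔIEC, and at 8.37, 8.14, 8.57 and 8.47 in Atg16l1/Rnaseh2bΔIEC. Rnaseh2b stood at 8.47, 8.41, 8.58 and 8.70 in WT, at 7.21 and 7.15 in Rnaseh2bΔIEC, and at 7.92, 7.68, 7.79 and 7.84 in Atg16l1/Rnaseh2bΔIEC. Each deleted gene was lower in all libraries labelled as lacking it than in all WT libraries, with a smaller drop in the double knockout than in the single one. In limma (Benjamini-Hochberg adjustment over all genes tested, as in all comparisons below), the difference from WT for Atg16l1 was -2.54 in Atg16l1ΔIEC and -1.07 in Atg16l1/Rnaseh2bΔIEC. For Rnaseh2b it was -1.36 in Rnaseh2bΔIEC and -0.73 in Atg16l1/Rnaseh2bΔIEC.

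Epithelial markers were abundant in every library. The epithelial keratin Krt8 had the highest mean level over the libraries of 6 epithelial markers, though Epcam or Cdh1 stood above it in some WT libraries. The summed level of the 6 lay between 16.83 and 16.95 in every library. The mesenchymal collagen gene Col1a2 was listed at about -1.33, the T cell gene Cd3e at about -1.33 and the macrophage gene Adgre1 at -1.97, all near the lowest value of the table. Not all markers of other tissues were that low. Also below the filter, Col1a1 lay at 2.03 to 2.13, the fibroblast gene Pdgfra at 1.44 to 1.52 and the leukocyte gene Ptprc at 0.47 to 0.53. Vim was the only stromal marker of 4 in the table that passed the filter, at 7.41 to 8.22. Of 5 immune markers in the table, the myeloid genes Itgam, at 5.44 to 5.84, and Lyz2, at 3.77 to 3.94, passed the filter, and so did the endothelial gene Pecam1, at 4.21 to 4.51. Within the epithelium the mix differed between groups. Of 8 enterocyte markers Sis had the highest mean level over the libraries, without regard to gene length. The summed level of the 8 was 17.28, 17.08, 16.68 and 16.64 in WT, and 17.77 and 17.91 in Rnaseh2bΔIEC. It was 16.85, 16.73, 17.51 and 17.26 in Atg16l1ΔIEC, and 16.58, 16.93, 16.47 and 16.54 in Atg16l1/Rnaseh2bΔIEC. Among 5 goblet markers Fcgbp had the highest mean level, again without regard to gene length. Their sum was 15.60, 15.61, 16.15 and 16.14 in WT, and 15.33 and 15.18 in Rnaseh2bΔIEC. It was 15.45, 15.41, 15.14 and 15.39 in Atg16l1ΔIEC, and 16.28, 16.18, 16.18 and 16.08 in Atg16l1/Rnaseh2bΔIEC. Rnaseh2bΔIEC organoids thus had the highest enterocyte sums and low goblet sums, and the WT pairs differed from each other in both. In bulk RNA, fewer cells of a type and less RNA per cell cannot be told apart.

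All 10 clock genes were expressed. Per kilobase of annotated exon, the WT log2 level ran from Nr1d1 at 8.19 ± 0.13 (SD, n = 4) and Cry1 at 8.07 ± 0.05 down to Arntl at 6.65 ± 0.18 and Per3 at 6.03 ± 0.13. Between these lay Per2 at 7.82 ± 0.04, Per1 at 7.34 ± 0.13, Clock at 7.26 ± 0.04, Cry2 at 7.12 ± 0.21, Dbp at 6.98 ± 0.27 and Nr1d2 at 6.74 ± 0.08. Neighbours from Per1 down to Arntl, and Nr1d1 and Cry1 at the top, lay within 1 SD of each other, whereas Per2 stood clear of Cry1 and Per1, and Per3 clear of Arntl. All values from here on are log2 levels or log2 differences of a gene with itself, not per length.

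The Period genes encode the proteins that carry the delayed repression of the loop, and Per2 had the widest range of genotype means among the members (0.70), ahead of Dbp (0.52) and Per3 (0.50). Per2 (chr1:91415982-91459324, minus strand, GRCm38) stood at 10.38, 10.43, 10.34 and 10.34 in the WT libraries and at 9.63 and 9.71 in the Rnaseh2bΔIEC libraries. It stood at 10.02, 10.16, 10.22 and 10.28 in Atg16l1ΔIEC, and at 9.89, 10.01, 10.15 and 10.13 in Atg16l1/Rnaseh2bΔIEC. Every knockout library was below every WT library, the Rnaseh2bΔIEC pair was lowest, and the other knockout groups overlapped each other between these extremes. Per2 fell by 0.70 in Rnaseh2bΔIEC (SE 0.08, limma adjusted p = 7.2e-05), by 0.33 in Atg16l1/Rnaseh2bΔIEC (SE 0.06, limma adjusted p = 0.0057) and by 0.20 in Atg16l1ΔIEC (SE 0.06, limma adjusted p = 0.037). The exact two-sided permutation p over libraries was 0.029 for either group of 4 against WT, the smallest that 4 against 4 allows, and 0.067 for Rnaseh2bΔIEC, the smallest that 2 against 4 allows. In Atg16l1ΔIEC the Per2 call was lost without library 1 (-0.15), 2 (-0.20) or 3 (-0.22) of that genotype and without WT library 1 (-0.20), 2 (-0.18), 3 (-0.21) or 4 (-0.21). It was also lost with lane as a covariate, where the Per2 difference in Atg16l1ΔIEC was -0.01 (limma adjusted p = 0.94), and this Per2 difference passed under 18 of 32 alternatives.

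**Figure D1:**
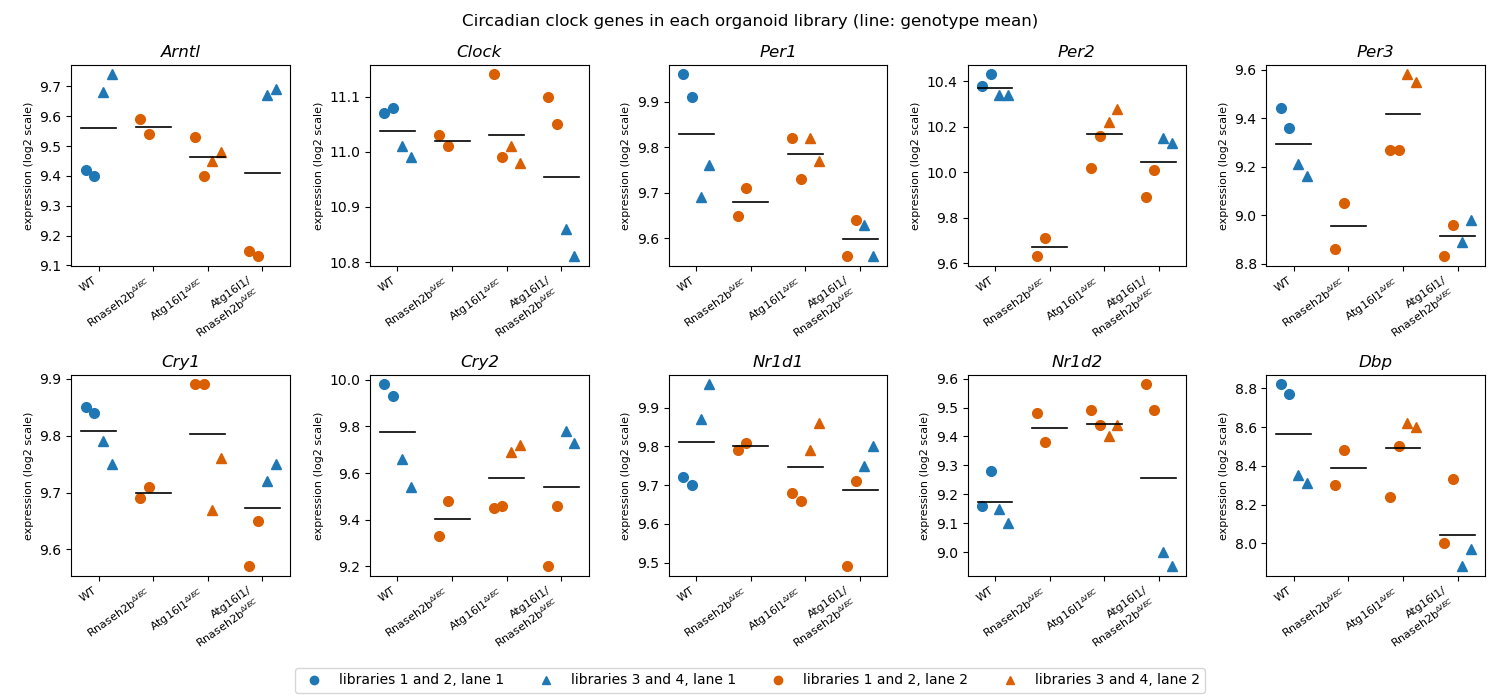
Log2 expression of the 10 clock genes in each library, 1 panel a gene, grouped by genotype; blue points ran on lane 1 and orange on lane 2, circles are libraries 1 and 2, triangles libraries 3 and 4, and the line is the genotype mean. Per2 lies at 9.63 and 9.71 in Rnaseh2bΔIEC against 10.34 to 10.43 in WT, while Arntl in Atg16l1/Rnaseh2bΔIEC splits into circles at 9.15 and 9.13 and triangles at 9.67 and 9.69.

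The difference in Per2 between knockouts was also tested directly. Rnaseh2bΔIEC was below Atg16l1ΔIEC, which ran on the same lane, by -0.50 (SE 0.08, limma adjusted p = 0.0022). Atg16l1/Rnaseh2bΔIEC was above Rnaseh2bΔIEC by 0.38 (SE 0.08, limma adjusted p = 0.0042), a call that was lost without Rnaseh2bΔIEC library 1 (0.34). The Per2 difference between Atg16l1/Rnaseh2bΔIEC and Atg16l1ΔIEC, -0.12, did not pass (SE 0.06, limma adjusted p = 0.15). The interaction is the difference with Rnaseh2b deletion in Atg16l1-deficient organoids minus that in Atg16l1-sufficient ones. For Per2 it was 0.58 (SE 0.10, limma adjusted p = 0.00085). Rnaseh2b itself fell less in the former (-0.81 against Atg16l1ΔIEC) than in the latter (-1.36 against WT). The part of this smaller drop in the Per2 interaction was not tested. Per2 was the only 1 of 10 members past the threshold for the interaction, for which 35.1% of all genes tested passed, and the only 1 of 10 in the comparison of the double knockout with Rnaseh2bΔIEC, for which 25.5% did. With lane as a covariate the Per2 interaction was 0.29 (limma adjusted p = 0.13), while other members passed. Over all alternatives the limma adjusted p of the Per2 interaction ran from 0.00013 to 0.13.

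Per3 followed another order. It stood at 9.44, 9.36, 9.21 and 9.16 in WT, at 9.27, 9.27, 9.58 and 9.55 in Atg16l1ΔIEC, at 8.86 and 9.05 in Rnaseh2bΔIEC, and at 8.83, 8.96, 8.89 and 8.98 in Atg16l1/Rnaseh2bΔIEC. The 6 libraries with deleted Rnaseh2b were all below the 8 libraries without that deletion, and the WT and Atg16l1ΔIEC ranges overlapped. Per3 fell by 0.38 in Atg16l1/Rnaseh2bΔIEC (SE 0.08, limma adjusted p = 0.012) and by 0.33 in Rnaseh2bΔIEC (SE 0.10, limma adjusted p = 0.029), each against WT. Against Atg16l1ΔIEC, it fell by 0.50 in the double knockout (SE 0.08, limma adjusted p = 0.0015) and by 0.46 in Rnaseh2bΔIEC (SE 0.10, limma adjusted p = 0.019). The call against WT in Rnaseh2bΔIEC was lost without either Rnaseh2bΔIEC library (-0.24 and -0.43) and without WT library 1 (-0.29) or 2 (-0.31). It was also lost with lane as a covariate, where the Per3 difference in Rnaseh2bΔIEC was -0.29 (limma adjusted p = 0.24), and it passed under 24 of 32 alternatives. The call against Atg16l1ΔIEC was lost without either Rnaseh2bΔIEC library as well (-0.37 and -0.55).

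Per1, the Period gene known for its rapid induction by serum and cAMP, stood at 9.96, 9.91, 9.69 and 9.76 in WT and at 9.56, 9.64, 9.63 and 9.56 in Atg16l1/Rnaseh2bΔIEC. These groups did not overlap, and the double knockout libraries lay close together. Per1 fell by 0.23 in the double knockout against WT (SE 0.05, limma adjusted p = 0.013) and by 0.19 against Atg16l1ΔIEC (SE 0.05, limma adjusted p = 0.022). The latter call was lost without Atg16l1ΔIEC library 3 (-0.18) and without double knockout library 1 (-0.18) or 4 (-0.17), and with lane as a covariate (-0.18, limma adjusted p = 0.052). In Rnaseh2bΔIEC it stood at 9.65 and 9.71, and the difference from WT of -0.15 did not pass the test (SE 0.07, limma adjusted p = 0.10).

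Dbp encodes a PAR bZIP factor that binds D-boxes and passes the rhythm on to output genes. It stood at 8.82, 8.77, 8.35 and 8.31 in WT, at 8.30 and 8.48 in Rnaseh2bΔIEC, at 8.24, 8.50, 8.62 and 8.60 in Atg16l1ΔIEC, and at 8.0, 8.33, 7.88 and 7.97 in Atg16l1/Rnaseh2bΔIEC. The double knockout held the 3 lowest libraries, and its highest overlapped the lower WT pair. Dbp fell by 0.52 in the double knockout against WT (SE 0.13, limma adjusted p = 0.021), with an exact permutation p of 0.057, and by 0.45 against Atg16l1ΔIEC (SE 0.13, limma adjusted p = 0.027). The call against WT was lost without WT library 1 (-0.43) or WT library 2 (-0.45). The call against Atg16l1ΔIEC was lost without Atg16l1ΔIEC library 3 (-0.40) or 4 (-0.41) and without Atg16l1/Rnaseh2bΔIEC library 1 (-0.43), 3 (-0.39) or 4 (-0.42), and with lane as a covariate (-0.33, limma adjusted p = 0.12).

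Counted over the circuit, 4 of 10 members were lower in Atg16l1/Rnaseh2bΔIEC than in WT (Per1, Per2, Per3 and Dbp) and none was higher, where 16.1% of all genes tested passed in either direction. The members' median difference was -0.19, against 0 for all genes tested. In Rnaseh2bΔIEC 2 of 10 members fell and none rose, where 26.7% of all genes passed, so the share of members was under that of all genes. In Atg16l1ΔIEC 1 of 10 fell, where 19.1% of all genes passed. Between the double knockout and Atg16l1ΔIEC 3 of 10 members fell, where 25.1% passed, and between Rnaseh2bΔIEC and Atg16l1ΔIEC 2 of 10 fell, where 6.81% passed.

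In WT, Atg16l1ΔIEC and the double knockout, libraries 1 and 2 deviated together, as did libraries 3 and 4 (correlations from 0.41 to 0.86), which could not be measured with the 2 Rnaseh2bΔIEC libraries, and the counts depend on whether that is taken into account. With each such pair as a correlated block in limma (estimated correlation 0.65), Per2 in Rnaseh2bΔIEC against WT had an adjusted p = 0.0026, Per3 in the double knockout against Atg16l1ΔIEC an adjusted p = 0.025 and the Per2 interaction an adjusted p = 0.016. No other genotype call of a member was left with the block. The 2 Rnaseh2bΔIEC libraries formed 1 block. For these Per2 calls the spread between blocks of that group was therefore borrowed from the other genotypes. For the double knockout against WT the limma adjusted p was then 0.15 for Per1, 0.09 for Per2, 0.12 for Per3 and 0.18 for Dbp. Without WT libraries 1 and 2, an alternative chosen after seeing the data, 0 of 10 members passed in limma in the double knockout against WT and 0 in Atg16l1ΔIEC against WT, with 5 and 1 at an unadjusted p under 0.05. Within lane 1 alone, also added later, 4 members passed in the double knockout against WT, Per2, Per3, Dbp and Clock. The Per1 difference of -0.24 did not pass there. The share of all genes that passed under these alternatives is not given, so these counts cannot be set against it.

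The marker lists moved along with several of these comparisons. In Rnaseh2bΔIEC against WT, 7 of 8 enterocyte markers rose, with a median difference of 1.24, among them the fatty acid binding protein gene Fabp1 (1.34) and the apolipoprotein gene Apoa4 (1.37), while 3 of 5 goblet markers and 2 of 5 stem cell markers fell, among them Clca1 (-1.68) and Lgr5 (-0.97). In the double knockout against WT, 3 of 5 Paneth markers rose, among them Mmp7 (0.75), 1 of 5 stem cell markers, Olfm4 (-1.51), and 1 of 5 goblet markers, Clca1 (-0.50), fell, and 1 of 8 enterocyte markers rose and 1 fell. In the double knockout against Atg16l1ΔIEC, 5 of 5 goblet, 4 of 5 Paneth, 4 of 5 stem cell and 2 of 4 enteroendocrine markers rose, and 2 of 8 enterocyte markers fell. In Atg16l1ΔIEC against WT, 5 of 5 stem cell markers and 3 of 5 goblet markers fell, and no enterocyte marker of 8 passed. The mix also moved in the other comparisons in which Per2 passed. For the interaction 6 of 8 enterocyte markers were negative (median -1.61), and 5 of 5 goblet (median 1.40) and 4 of 5 stem cell markers (median 1.03) were positive, as were 3 of 4 enteroendocrine and 2 of 5 Paneth markers. In the double knockout against Rnaseh2bΔIEC, 7 of 8 enterocyte markers fell (median -1.32), 5 of 5 goblet and 3 of 4 enteroendocrine markers rose, of 5 stem cell markers 2 rose and 1 fell, and of 2 immune markers tested Lyz2 rose (0.13). In Rnaseh2bΔIEC against Atg16l1ΔIEC, 4 of 8 enterocyte markers rose (median 0.88) and 1 of 5 goblet markers fell. Of 4 enteroendocrine markers 1 fell in Atg16l1ΔIEC and none passed in the other knockouts against WT, and of 7 proliferation markers 1 fell in Rnaseh2bΔIEC, 1 fell in Atg16l1ΔIEC and 2 rose in the double knockout. Of 6 general epithelial markers, 2 rose in Rnaseh2bΔIEC and 1 in the double knockout, each against WT. In the double knockout against either single knockout 1 rose and 1 fell, the latter Krt20 (-0.8 against Rnaseh2bΔIEC). For the interaction 1 was positive and 2 were negative, Krt20 (-1.03) and Vil1 (-0.42). Of 7 proliferation markers, 1 rose in the double knockout against Atg16l1ΔIEC and 1 was positive for the interaction. The part of this mix in the Period and Dbp differences was not tested.

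Neither activator of the loop passed in a comparison of genotypes. Arntl (chr7:113207465-113314126, plus strand) stood at 9.42, 9.40, 9.68 and 9.74 in WT, at 9.59 and 9.54 in Rnaseh2bΔIEC, at 9.53, 9.40, 9.45 and 9.48 in Atg16l1ΔIEC, and at 9.15, 9.13, 9.67 and 9.69 in Atg16l1/Rnaseh2bΔIEC. In WT and in the double knockout libraries 1 and 2 were low and libraries 3 and 4 high, whereas the 4 Atg16l1ΔIEC libraries did not split. The genotype differences from WT were 0.00 in Rnaseh2bΔIEC (95% interval -0.33 to 0.33), -0.10 in Atg16l1ΔIEC (-0.36 to 0.17) and -0.15 in the double knockout (-0.42 to 0.12). Between the pairs of 1 genotype, libraries 1 and 2 minus 3 and 4, the Arntl difference was -0.30 in WT (SE 0.05, limma adjusted p = 0.00072). It was -0.54 in Atg16l1/Rnaseh2bΔIEC (SE 0.05, limma adjusted p = 3.5e-06) and 0.00 in Atg16l1ΔIEC. The pairs were defined from these same data, because libraries differed along that split. The p-values between pairs, here and below, are therefore a description and not an independent test. The range of the genotype means of Arntl was 0.15, under a pair difference of 0.54 inside a genotype, while the libraries of a pair differed by at most 0.13. With lane as a covariate, which the double knockout alone informs, the Arntl differences from WT were 0.54 in Rnaseh2bΔIEC and 0.44 in Atg16l1ΔIEC, both past the threshold. The Arntl interaction was -0.06 in the main fit. Over all alternatives it ran from -0.86 to 0.21 and passed under 1 of 31.

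Clock, which encodes the partner of ARNTL, lay between 10.81 and 11.14 in all libraries. Its lowest values, 10.86 and 10.81, were in libraries 3 and 4 of the double knockout, against 11.10 and 11.05 in libraries 1 and 2. The pair difference there was 0.24 (SE 0.04, limma adjusted p = 0.00087), and no genotype comparison passed, though with lane as a covariate the differences from WT were -0.26 in Rnaseh2bΔIEC, -0.25 in Atg16l1ΔIEC and -0.20 in the double knockout, all past the threshold. Npas2, a paralogue that can replace CLOCK, stood at 9.31, 9.28, 9.57 and 9.61 in WT, at 9.03 and 9.17 in Rnaseh2bΔIEC, at 8.90, 9.11, 9.08 and 9.01 in Atg16l1ΔIEC, and at 8.98, 9.18, 9.74 and 9.74 in the double knockout. All 6 lane 1 libraries were above all 8 lane 2 libraries for Npas2.

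The REV-ERB genes parted from each other. Nr1d2 (chr14:18204054-18239127, minus strand) stood at 9.16, 9.28, 9.15 and 9.10 in WT, at 9.48 and 9.38 in Rnaseh2bΔIEC, at 9.49, 9.44, 9.40 and 9.44 in Atg16l1ΔIEC, and at 9.58, 9.49, 9.0 and 8.95 in Atg16l1/Rnaseh2bΔIEC. All lane 1 libraries lay between 8.95 and 9.28 and all lane 2 libraries between 9.38 and 9.58, so the values separated by lane and, inside the double knockout, by pair. Nr1d2 was the only 1 of 10 members whose lanes did not overlap, against 6.12% of all genes tested. Its differences from WT, 0.26 in Rnaseh2bΔIEC (SE 0.14, limma adjusted p = 0.20) and 0.27 in Atg16l1ΔIEC (SE 0.12, limma adjusted p = 0.12), did not pass. Inside the double knockout libraries 1 and 2 were higher by 0.56 (SE 0.05, limma adjusted p = 8.2e-06). With lane as a covariate, the Nr1d2 differences from WT turned to -0.30 in Rnaseh2bΔIEC, -0.29 in Atg16l1ΔIEC and -0.20 in the double knockout, all past the threshold.

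Nr1d1 (chr11:98767932-98775333, minus strand) stood at 9.72, 9.70, 9.87 and 9.96 in WT, at 9.68, 9.66, 9.79 and 9.86 in Atg16l1ΔIEC, and at 9.49, 9.71, 9.75 and 9.80 in Atg16l1/Rnaseh2bΔIEC. Libraries 1 and 2 were lower than libraries 3 and 4 in each of these genotypes, which is the direction of Arntl in WT and in the double knockout. The pair difference was -0.21 in WT (SE 0.06, limma adjusted p = 0.025) and -0.17 in the double knockout (SE 0.06, limma adjusted p = 0.038), both past the threshold, and -0.16 in Atg16l1ΔIEC, which did not pass. In WT the Nr1d1 call was lost without WT library 1 (-0.22), 2 (-0.20) or 4 (-0.16). In the double knockout it was lost without double knockout library 1 (-0.06), 3 (-0.20) or 4 (-0.15) and without WT library 1 or 2 (both -0.17), and it passed under 15 of 21 alternatives. In Rnaseh2bΔIEC, at 9.79 and 9.81, Nr1d1 lay inside the WT range, with a difference of -0.01, and no genotype comparison of Nr1d1 passed.

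The Cryptochromes are the partners of the Period proteins in repression. Cry2 stood at 9.98, 9.93, 9.66 and 9.54 in WT, at 9.33 and 9.48 in Rnaseh2bΔIEC, at 9.45, 9.46, 9.69 and 9.72 in Atg16l1ΔIEC, and at 9.20, 9.46, 9.78 and 9.73 in Atg16l1/Rnaseh2bΔIEC. Libraries 1 and 2 were high in WT and low in the other genotypes with a second pair. The pair difference was 0.35 in WT (SE 0.07, limma adjusted p = 0.0046), -0.24 in Atg16l1ΔIEC (SE 0.07, limma adjusted p = 0.032) and -0.43 in the double knockout (SE 0.07, limma adjusted p = 0.00066). Cry1 lay between 9.57 and 9.89 in all libraries, with pair differences of 0.17 in Atg16l1ΔIEC and -0.13 in the double knockout that passed, and no genotype comparison of either gene passed. The largest pair difference inside a genotype was 0.43 for Cry2 and 0.17 for Cry1, and the range of the genotype means was 0.37 and 0.14.

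**Figure D2:**
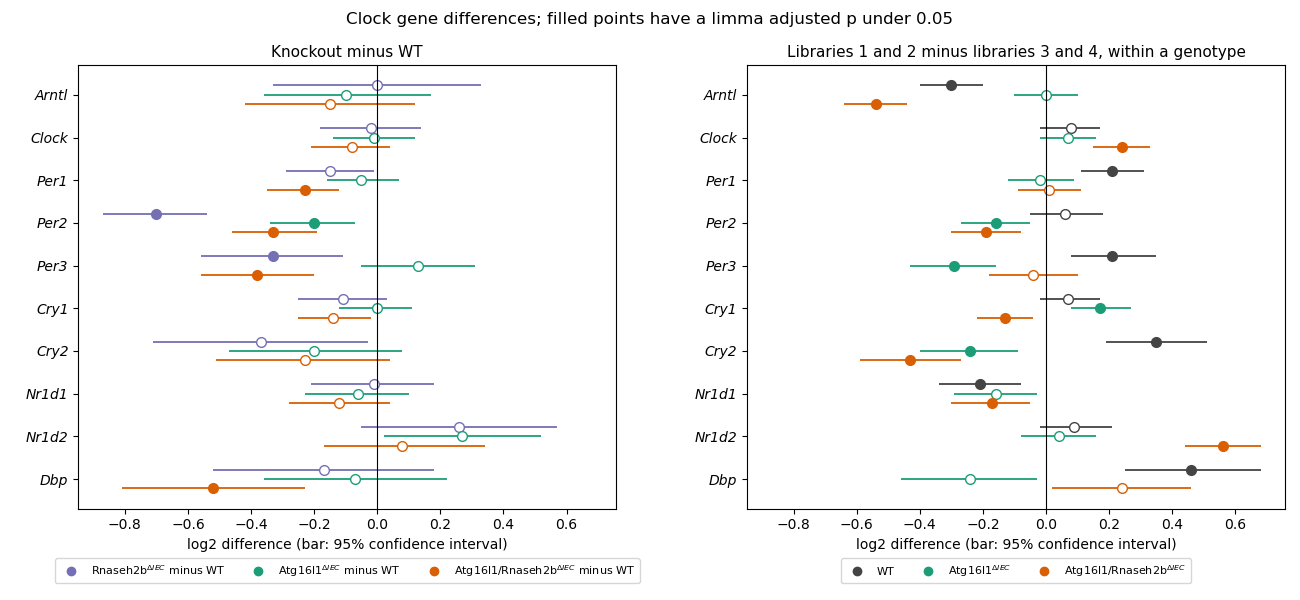
Log2 differences of the 10 clock genes with 95% confidence intervals, for each knockout minus WT on the left and for libraries 1 and 2 minus libraries 3 and 4 of a genotype on the right; filled points have a limma adjusted p under 0.05. On the left the filled points are Period genes and Dbp, with Per2 in Rnaseh2bΔIEC at -0.70 farthest from 0, and on the right Arntl at -0.54 and Nr1d2 at 0.56 in Atg16l1/Rnaseh2bΔIEC lie on opposite sides.

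Across the circuit, some members differed between the library pairs of more than 1 genotype, with the same sign for Arntl, Nr1d1 and Per2 and with both signs for Cry1, Cry2 and Per3. In WT, libraries 1 and 2 were higher than 3 and 4 for Dbp (0.46), Cry2 (0.35), Per1 (0.21) and Per3 (0.21), and lower for Arntl (-0.30) and Nr1d1 (-0.21), which makes 6 of 10 members where 20.4% of all genes passed. In Atg16l1ΔIEC they were higher for Cry1 (0.17) and lower for Per3 (-0.29), Cry2 (-0.24) and Per2 (-0.16), 4 of 10 where 20.5% passed. In Atg16l1/Rnaseh2bΔIEC they were higher for Nr1d2 (0.56) and Clock (0.24), and lower for Arntl (-0.54), Cry2 (-0.43), Per2 (-0.19), Nr1d1 (-0.17) and Cry1 (-0.13), 7 of 10 where 33.8% passed. Arntl and Dbp moved in opposite directions in WT, Arntl and Nr1d2 did so in the double knockout, and Arntl and Nr1d1 moved in the same direction in both, though the Nr1d1 difference in the double knockout was -0.06 without its library 1. Both WT pairs ran on lane 1 and both Atg16l1ΔIEC pairs on lane 2, so lane does not separate them, whereas in the double knockout pair and lane cannot be told apart. The count of members was 1 in WT without WT library 1 and 2 without WT library 4. The Per2 difference between the Atg16l1ΔIEC pairs passed under 9 of 21 alternatives and was -0.09 without Atg16l1ΔIEC library 1. The count was 0 without Atg16l1ΔIEC library 3 and 4 without double knockout library 3 or 4, whereas Arntl in WT and Arntl, Clock, Cry2 and Nr1d2 in the double knockout passed under every alternative run.

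Some genes that respond to the signals known to set clock phase also differed between library pairs. Fos, an immediate early gene induced by serum, stood at 8.43, 8.49, 9.34 and 9.32 in WT, and at 8.68, 8.83, 9.43 and 9.31 in Atg16l1/Rnaseh2bΔIEC. Egr1, another immediate early gene, stood at 10.36, 10.36, 11.19 and 11.20 in WT, and at 10.13, 10.38, 11.08 and 11.08 in the double knockout. In both genotypes libraries 3 and 4 were high and libraries 1 and 2 low for these genes. In Atg16l1ΔIEC the pair difference passed for neither gene, at 0.13 for Fos (8.52 to 8.72) and -0.05 for Egr1. Fos differed by -0.87 between the WT pairs (SE 0.06, limma adjusted p = 1e-06) and by -0.62 between those of the double knockout (SE 0.06, limma adjusted p = 1e-05). Of 11 tested input genes, 1 rose and 6 fell in WT libraries 1 and 2, where 20.4% of all genes passed, 2 rose and 4 fell in those of the double knockout, where 33.8% did, and 1 fell in those of Atg16l1ΔIEC, where 20.5% did. The glucocorticoid target Fkbp5 was higher in double knockout libraries 1 and 2 by 0.65 (SE 0.06, limma adjusted p = 2.9e-06), with a difference of 0 between the WT pairs. Beside these, 7 of 8 enterocyte markers were higher in WT libraries 1 and 2 and 7 of 8 lower in Atg16l1ΔIEC libraries 1 and 2, and in the double knockout 4 were higher and 1 lower. Of the other epithelial lists, 3 of 5 goblet markers, 2 of 5 Paneth markers and 3 of 4 enteroendocrine markers were lower in WT libraries 1 and 2, among them Muc2 (-0.72), and of 5 stem cell markers 1 was higher and 2 lower. In Atg16l1ΔIEC libraries 1 and 2, 5 of 5 Paneth markers were higher, among them Lyz1 (0.86), as were 2 of 5 stem cell, 2 of 4 enteroendocrine and 3 of 7 proliferation markers, and of 5 goblet markers 2 were higher and 1 lower. In those of the double knockout 2 of 5 Paneth, 1 of 5 goblet and 2 of 7 proliferation markers were higher, of 5 stem cell markers 2 were higher and 1 lower, and of 4 enteroendocrine markers 1 was higher and 1 lower. The markers of other tissues Vim (-0.51), Itgam (-0.33) and Pecam1 (-0.19) were lower in WT libraries 1 and 2, and Vim was higher in those of Atg16l1ΔIEC (0.40). The part of the input genes and of the cell mix in the clock gene differences between pairs was not tested.

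Between genotypes, 2 of 11 input genes passed in Rnaseh2bΔIEC against WT, 2 in Atg16l1ΔIEC and 1 in the double knockout, where 26.7%, 19.1% and 16.1% of all genes tested passed. Sgk1, a glucocorticoid-induced kinase gene, rose by 0.92 in Rnaseh2bΔIEC against WT (SE 0.12, limma adjusted p = 0.00021), and Creb1, which encodes the cAMP response factor, fell by 0.27 there (SE 0.05, limma adjusted p = 0.0029). In Atg16l1ΔIEC, Creb1 fell by 0.27 and Srf rose by 0.20. In Atg16l1/Rnaseh2bΔIEC only Fkbp5 passed, rising by 0.69 (SE 0.14, limma adjusted p = 0.0067).

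Of 11 further clock transcription factors, 9 were tested, and Rorb and Bhlhe41 were below the filter. Bhlhe40 (DEC1), a repressor of E-box transcription, fell in all knockouts against WT, by 0.51 in Rnaseh2bΔIEC (SE 0.07, limma adjusted p = 0.00048), 0.38 in Atg16l1ΔIEC and 0.28 in the double knockout. Ciart, which encodes a repressor of the ARNTL and CLOCK heterodimer, fell by 0.33 in Rnaseh2bΔIEC and by 0.26 in Atg16l1ΔIEC. Hlf, a PAR bZIP relative of Dbp, rose by 0.74 in Rnaseh2bΔIEC (SE 0.16, limma adjusted p = 0.0049). In all, 1 rose and 2 fell in Rnaseh2bΔIEC, 2 fell in Atg16l1ΔIEC and 2 fell in the double knockout, of 9 tested, where 26.7%, 19.1% and 16.1% of all genes passed, and the median difference of the 9 was -0.29, -0.12 and -0.13, against 0 for all genes tested. For the interaction, for which 35.1% of all genes passed, 3 of 9 were positive and 2 negative, among them Bhlhe40 (0.62), Ciart (0.68), Npas2 (0.73) and Hlf (-1.10). Between the pairs, libraries 1 and 2 minus 3 and 4, 1 of 9 rose and 2 fell in WT, where 20.4% of all genes passed, 2 fell in Atg16l1ΔIEC, where 20.5% did, and 2 rose and 5 fell in the double knockout, where 33.8% did. Nfil3, the repressor that opposes Dbp at D-boxes, was lower in libraries 1 and 2 (-0.44 in WT, -0.70 in the double knockout), and so was Npas2 (-0.30 and -0.66), the direction of Arntl in both genotypes. Tef, another relative of Dbp, was higher in libraries 1 and 2 by 0.35 in WT, where Dbp passed as well, and by 0.36 in the double knockout, where the Dbp difference of 0.24 did not pass. Hlf was lower by 0.42 in Atg16l1ΔIEC libraries 1 and 2 (SE 0.07, limma adjusted p = 0.0019) and higher by 0.42 in those of the double knockout (SE 0.07, limma adjusted p = 0.00052).

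Of 12 kinases, ubiquitin ligases and partners of clock proteins, 1 rose and 1 fell in Rnaseh2bΔIEC against WT, where 26.7% of all genes passed, 1 rose and 1 fell in Atg16l1ΔIEC, where 19.1% did, and 1 rose and 2 fell in the double knockout, where 16.1% did. The deubiquitinase gene Usp2 rose by 0.39 in Rnaseh2bΔIEC and fell by 0.33 in the double knockout. The difference between these was -0.72 (SE 0.12, limma adjusted p = 0.0015). Between the WT pairs Usp2 differed by 0.35 (SE 0.08, limma adjusted p = 0.0087). Genotype calls of the lists beyond the members are from the main fit, without pairs as a correlated block. Gsk3b fell by 0.14 in Rnaseh2bΔIEC, by 0.12 in Atg16l1ΔIEC and by 0.13 in the double knockout, and its lane 1 libraries, at 11.73 to 11.86, were all above its lane 2 libraries, at 11.64 to 11.72. Timeless, a partner of the clock proteins, rose by 0.28 in the double knockout (SE 0.07, limma adjusted p = 0.024). The median difference of the 12 from WT was 0.02 in Rnaseh2bΔIEC, 0 in Atg16l1ΔIEC and -0.02 in the double knockout.

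Of 11 output genes 10 were tested, with Cys1 below the filter, and their median difference from WT was -0.05 in Rnaseh2bΔIEC, -0.10 in Atg16l1ΔIEC and -0.08 in the double knockout. Nampt, the rate-limiting enzyme of NAD salvage, fell by 0.25 in Rnaseh2bΔIEC (SE 0.04, limma adjusted p = 0.0012) and by 0.24 in Atg16l1ΔIEC (SE 0.03, limma adjusted p = 0.00051), and its lanes did not overlap either, with lane 1 at 12.21 to 12.34 and lane 2 at 11.97 to 12.19. Slc5a1, the sodium-glucose cotransporter gene of enterocytes, rose by 0.55 in Rnaseh2bΔIEC and fell by 0.48 in the double knockout, and its values moved between pairs by 0.38 in WT and -0.47 in Atg16l1ΔIEC. Wee1, a mitotic kinase gene under E-box control, was higher in libraries 1 and 2 of WT (0.21) and of the double knockout (0.27). In the double knockout Wee1 stood at 10.34, 10.09, 9.94 and 9.96, so that difference leans on library 1. Wee1 passed in no genotype comparison.

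The genes most like Arntl over the 14 libraries, among all genes tested, were Sh2b1 (Pearson r 0.90), Hsdl1 (0.89) and Pard6b (0.88), and the most opposite were Ybey (-0.93), Smarcad1 (-0.90) and Tnrc6b (-0.85). For Nr1d1 the most like were Il17rc (0.91), Gcnt2 (0.91) and Stk25 (0.90), and the most opposite Rsu1 (-0.91), Ldah (-0.90) and Mad2l1 (-0.88). Among the members, r with Arntl was 0.74 for Nr1d1, -0.70 for Nr1d2, -0.56 for Clock and -0.21 for Dbp. The 14 points share genotype, lane and library pair, so these values describe likeness in this set of libraries.

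Promoter sequence from RefSeq (GRCm38.p6, 250 bases before to 50 after a start) matched 9 of the members, with 13 entries, and Per2 was not among them. The letters CACGTG, the E-box bound by ARNTL and CLOCK, were searched on both strands and occur in 7.15% of all 32851 promoters, TTATGTAA or TTACGTAA, a D-box, in 1.06%, and TAGGTCA or TGGGTCA, the core of the element bound by REV-ERB and ROR proteins, in 6.45%. The searched motifs do not overlap in the windows shown. The E-box letters were found in 1 of the 2 Per1 entries and in Cry1, the D-box letters in Per3 at 2 places, and the ROR element core in 1 of the 2 Arntl entries. The stretches that held a motif are shown, with the motif in capitals. In the main fit Per1 and Per3 passed between genotypes and Arntl between library pairs. Per1 also passed between the WT pairs (0.21), and no genotype call of Per1 was left with pairs as a correlated block.
Per1, chr11:69098758-69098813, plus strand, in the Per1 gene outside its annotated exons: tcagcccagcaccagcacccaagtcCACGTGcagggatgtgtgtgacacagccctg
Cry1, chr10:85185084-85185139, minus strand, outside annotated genes: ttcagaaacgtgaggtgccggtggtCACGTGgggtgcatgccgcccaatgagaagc
Per3, chr4:151044791-151044895, minus strand, upstream of Per3 and in the annotated Camta1 gene outside exons: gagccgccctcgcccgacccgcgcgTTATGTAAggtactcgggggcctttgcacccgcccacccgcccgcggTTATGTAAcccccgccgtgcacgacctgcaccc
Arntl, chr7:113207531-113207557, plus strand, in the untranslated first part of an Arntl transcript: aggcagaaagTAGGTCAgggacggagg
Per1 in that entry and Cry1 share the E-box letters. In the double knockout against WT the difference was -0.23 for Per1 (95% interval -0.35 to -0.12), which passed. For Cry1 it was -0.14 (-0.25 to -0.02), which did not pass (limma adjusted p = 0.097), with no test between these genes. A match describes these letters only, and binding was not measured.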

How the data were processed

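Per the study's methods and the submitters' processing notes, stranded mRNA libraries were read single-end, and the authors used cutadapt for trimming, TopHat2 for alignment to the GRCm38 build, HTSeq for gene counts and DESeq2 for differential expression. The deposited table holds log2 expression values whose transformation is not named. They run from -2.13 to 17.45, and lowly expressed genes are almost constant (median SD 0.001 for means of -3 to -2, 0.101 for 9 to 10), so differences of low genes are compressed. Gene identifiers were matched to GENCODE M21 (99.7% of 18781). Genes with a mean of at least 3.32, which is log2 of 10, were fitted with limma 3.58.1 in R 4.3.3 (mean-variance trend, 1 mean per genotype over 14 libraries, Benjamini-Hochberg, threshold 0.05). Library pairs were compared in a fit with 1 mean per pair. The pairs are not named in the labels and were taken from earlier results of these same data. The procedure was tested on simulated data. Members, marker lists and the rule for named genes (all members, and up to 4 genes past the threshold with the largest difference per list, with likeness to Arntl and Nr1d1) were chosen with earlier results of these data known. Alternatives covered filters, scaling, added constants, lane, pairs and leaving out libraries. Figures used matplotlib 3.10.9. The results of 2 genes of the further lists are not reported here by name; both stay in the counts and medians.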

Additional observations from a re-analysis of the deposited data

Results flagged for a closer look

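In the main fit the Per2 difference with Rnaseh2b deletion was not the same with and without Atg16l1 deletion, with an interaction of 0.58 (SE 0.10, limma adjusted p = 0.00085). With lane as a covariate the Per2 interaction was 0.29 and did not pass (limma adjusted p = 0.13). The deleted genes differed in the same test: the interaction was 1.40 for Atg16l1 and 0.55 for Rnaseh2b, which measures the smaller drop of each gene in the double knockout than in its single knockout. The part of this smaller drop in the Per2 interaction was not tested. In WT, library 2 stood apart for Atg16l1, at 9.54 against 9.43 to 9.44, a gap of 0.89 of the group's range.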

How the results depend on the processing

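Of 100 member values (10 genes in 10 comparisons), 31 passed the threshold, and none of these 31 changed sign under any alternative run. Of the 69 that did not pass, 46 changed sign under at least 1 alternative, and 6 passed with the other sign. The pair comparisons were run under 21 alternatives each, covering filters, scaling, added constants and single libraries left out. They were not run with lane, blocks or whole pairs left out, so their signs were less open to change. Causes were not tested. Depth is unknown, and no count test was possible on these values. A fit that leaves 1 Rnaseh2bΔIEC library assumes that it varies like the other groups.

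The number of members past the threshold ran, leaving out 1 library at a time, from 1 to 3 in Rnaseh2bΔIEC against WT, 0 to 1 in Atg16l1ΔIEC against WT, 3 to 4 in the double knockout against WT, 0 to 1 in the double knockout against Rnaseh2bΔIEC, 1 to 4 against Atg16l1ΔIEC, 1 to 2 between the single knockouts and 1 to 2 for the interaction. For the pairs it ran from 1 to 6 in WT, 0 to 6 in Atg16l1ΔIEC and 4 to 7 in the double knockout. The share of all genes that passed is given above for the main fits only. Counts under an alternative, here and below, therefore stand without that share, and the number of all genes that passed moved as well. In Atg16l1ΔIEC against WT 2450 genes passed in the main fit. There 1659 passed without Atg16l1ΔIEC library 4 and 2870 without double knockout library 1. In the double knockout against WT 2063 genes passed in the main fit and 1289 without double knockout library 1. With lane as a covariate 4 members passed in Rnaseh2bΔIEC against WT, 3 in Atg16l1ΔIEC against WT, 2 in the double knockout against Rnaseh2bΔIEC (2 within lane 2) and 3 for the interaction. With pairs as a correlated block the counts were 1 in Rnaseh2bΔIEC, 0 in Atg16l1ΔIEC and 0 in the double knockout against WT, 0 and 1 in the double knockout against Rnaseh2bΔIEC and Atg16l1ΔIEC, and 0 between the single knockouts, where the counts of 0 had 1, 4, 1 and 2 members at an unadjusted p under 0.05. With no filter 0 passed in Atg16l1ΔIEC against WT and 2 between its pairs, and with upper quartile scaling 0 in Atg16l1ΔIEC against WT. In a fit of the compared groups only, 2 passed in Atg16l1ΔIEC against WT and 1 between the single knockouts. Leaving out both libraries of a pair, added after seeing the data, gave 4, 4, 1 and 4 in Rnaseh2bΔIEC against WT (without double knockout 1 and 2, double knockout 3 and 4, WT 1 and 2, WT 3 and 4), 2, 2 and 0 in Atg16l1ΔIEC against WT (without double knockout 1 and 2, double knockout 3 and 4, WT 1 and 2), 7 and 0 in the double knockout against WT (without double knockout 3 and 4, WT 1 and 2), 3 and 2 in the double knockout against Rnaseh2bΔIEC (without double knockout 1 and 2, 3 and 4), 1 between the single knockouts (without Atg16l1ΔIEC 3 and 4), and 3 and 2 for the interaction (without double knockout 1 and 2, WT 1 and 2).

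Same-numbered libraries of different genotypes did not deviate together (correlations from -0.50 to 0.44), so the numbers were not taken as pairs. With the replicate number as a block (replicate block), 1 member passed in Rnaseh2bΔIEC against WT, 2 in the double knockout against Rnaseh2bΔIEC and 1 between the single knockouts. The Clock interaction turned to 0.01 with this block.

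For members that did not pass in the main fit but did under at least 1 alternative of the same comparison, signs turned as follows, and the other sign changes are only counted above. With lane as a covariate, in Rnaseh2bΔIEC against WT Cry2 was 0.06 and Nr1d2 -0.30; in Atg16l1ΔIEC against WT Arntl was 0.44 and Nr1d2 -0.29; in the double knockout against WT Arntl was 0.12 and Nr1d2 -0.20; against Rnaseh2bΔIEC Clock was 0.06 and Nr1d2 0.10; against Atg16l1ΔIEC Clock was 0.05 and Nr1d2 0.09; and for the interaction Cry2 was -0.31, Clock 0.31, Nr1d2 0.40 and Dbp 0.08. Within lane 2 Clock was 0.06 and Nr1d2 0.10 against Rnaseh2bΔIEC, and 0.05 and 0.09 against Atg16l1ΔIEC. Within lane 1 Arntl was 0.12 and Nr1d2 -0.20 in the double knockout against WT. With total scaling Arntl was -0.04 in Rnaseh2bΔIEC against WT. Without WT libraries 1 and 2 Arntl was -0.15 and Clock 0.02 in Rnaseh2bΔIEC, Per1 was 0.06 and Clock 0.03 in Atg16l1ΔIEC, and the Arntl interaction was 0.09. Without WT libraries 3 and 4 Arntl was 0.05 in Atg16l1ΔIEC. Without Atg16l1ΔIEC libraries 3 and 4 Per3 was -0.02 and Clock 0.03 in that genotype. Without double knockout libraries 1 and 2 Arntl was 0.12 and Nr1d2 -0.20 against WT, and Arntl was 0.12 against Rnaseh2bΔIEC, 0.22 against Atg16l1ΔIEC and 0.21 for the interaction. Without double knockout libraries 3 and 4 Clock was 0.04 against WT, 0.06 against Rnaseh2bΔIEC, 0.05 against Atg16l1ΔIEC and 0.07 for the interaction, and Nr1d2 was 0.10 and 0.09 against the single knockouts. Leaving out 1 library at a time, Arntl ran from -0.05 to 0.06 in Rnaseh2bΔIEC against WT, Clock from -0.05 to 0.01 in Atg16l1ΔIEC against WT, Nr1d2 from -0.02 to 0.18 in the double knockout against WT, and Arntl from -0.15 to 0.04 in the double knockout against Atg16l1ΔIEC and from -0.15 to 0.04 for the interaction.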
